A study of Mus musculus with 39 samples.

Results

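Brain RNA from mice 14 days after 1/5 of the LD50 of soman was compared with brain RNA from mice given saline. The LD50 is the dose that kills 50% of animals. The 3 libraries labelled 1/5 LD50 at day 14 and the 3 saline libraries were taken by their labels, 6 of the 39 libraries of the series. The whole series holds 3 doses of soman (1/10, 1/5 and 1/2 LD50, injected under the skin) at 4 times (1, 3, 7 and 14 days), each with 3 biological replicates per the series' design text, and a single saline group of 3. All mice were kept at a 12-h light and dark cycle. Strain, sex, age, the number of animals behind a library, brain perfusion, repeated or single dosing, the time of day and the day on which saline brains were collected are not given in the sources used here. A difference between day 14 and saline therefore cannot be told apart from a difference in collection day.

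Soman is an organophosphate nerve agent. It binds the active site of acetylcholinesterase, the enzyme that clears acetylcholine from synapses, and the excess transmitter overstimulates muscarinic and nicotinic receptors. Strong poisoning leads to seizures, and neurons that fire intensely switch on immediate early genes, a set of transcription factors and synaptic proteins that respond within minutes. A piece of brain also carries meninges, vessels and blood, whose RNA is read together with that of neurons and glia.

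Values were FPKM (fragments counted per length of transcript, scaled to the mapped fragments of the library). In the 6 libraries FPKM summed to between 296322 and 316802, between 25048 and 26001 genes were above 0, and mitochondrial genes took 6.6 to 11.0% of the total. The number of reads is unknown. Markers of neurons, astrocytes and oligodendrocytes were high in both groups: Snap25, a synaptic membrane protein, averaged 744 FPKM after 1/5 LD50 and 674 FPKM in saline, and the astrocyte filament gene Gfap 73.3 FPKM after 1/5 LD50 and 75.3 FPKM in saline. In both groups replicate 3 often lay between replicates 1 and 2. Genes of 5 FPKM or more whose replicates 1 and 2 differed by more than 2-fold were examined, and replicate 3 fell at 0.3 to 0.7 of that distance for 51.0% of 49 genes in the 1/5 LD50 group and 65.5% of 55 genes in saline, against a median of 18.7% and a maximum of 78.8% in the 37 other libraries of the series. Replicate 3 also had high shares at day 1 (73.2% at 1/10, 78.8% at 1/5 and 69.5% at 1/2 LD50). At 1/10 LD50 it had 58.7% at day 3 and 46.5% at day 14. In the other soman groups its share was lower, though replicate 2 of 1/10 LD50 at day 7 had 65.3%. Whether such libraries are independent was not tested, and the p-values treat them as independent. The counts against saline are given below with all libraries and without replicate 3 of 1/5 LD50 at day 14 and of saline. The error still comes from all 13 groups.

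Of 14701 genes tested, 24 (0.163%) differed from saline at day 14 after 1/5 LD50 at an adjusted p below 0.05 (limma, Benjamini-Hochberg). Of these, 9 were higher (0.0612%) and 15 lower (0.102%). The falls were led by erythroid genes, the haemoglobin chains and the enzyme that starts haem synthesis, whose means ranged from 0.203 of the saline mean for Alas2 to 0.296 for Hba-a1. Further falls were in genes of the meninges and of the interferon response. Kdr, a vascular receptor gene, also fell, the only call among 25 endothelial genes. Apart from that of Cwc22 (log2 change 2.04), the rises were smaller than the erythroid falls. They included Gadd45b and Fosb, both induced by neuronal activity. Among these genes, which the test chose for being apart, the values of the groups overlapped in Cwc22. At an unadjusted p below 0.05 (10.4% of genes), 898 genes were higher (6.11%) and 624 lower (4.24%), and the median log2 change of all tested genes was 0.01.

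**Figure D1:**
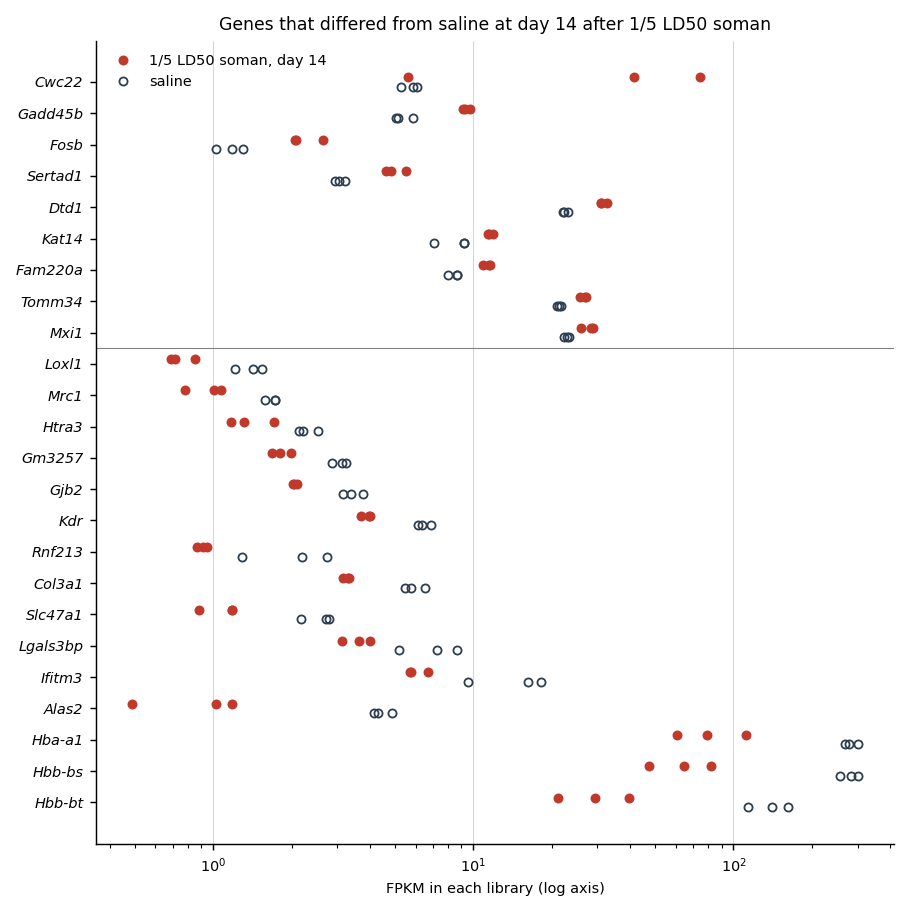
FPKM (log axis) of the 24 genes that passed the test, in each library of 1/5 LD50 soman at day 14 (filled) and saline (open). Genes above the line rose and genes below it fell. The test chose these genes for being apart, so their separation is not further evidence. In Cwc22 the groups overlap, with 1 soman library at 5.61 FPKM.

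Counts rested on single libraries. Leaving out replicate 1, 2 or 3 of the 1/5 LD50 group left 10, 0 and 3 genes, and leaving out saline replicate 1, 2 or 3 left 13, 10 and 0 genes. Without replicate 3 of both groups no gene passed by limma, and 783 had an unadjusted p below 0.05. The 24 genes kept their direction with an unadjusted p below 0.05 each and adjusted p between 0.231 and 0.699. They had been chosen with all libraries, including those kept here, so this is not independent support.

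Haemoglobin is built of alpha chains (Hba-a1, Hba-a2) and beta chains (Hbb-bs, Hbb-bt), and Alas2 is the erythroid form of the enzyme that makes the first haem precursor. Their messengers are abundant in immature red cells and persist in circulating reticulocytes. The windows around the start sites of the 4 genes that fell are shown because these genes lie on 3 chromosomes and fell together. The sequences are those of RefSeq, build GRCm38.p6, from 250 bases before to 50 bases after the gene's start, 5′ to 3′ on the gene's strand. They lie at chr7:103813874-103814173 on the minus strand for Hbb-bt, chr7:103827879-103828178 on the minus strand for Hbb-bs, chr11:32283422-32283721 on the plus strand for Hba-a1 and chrX:150547167-150547466 on the plus strand for Alas2. Capitals mark matches, on either strand, to textbook elements of globin promoters. These are the GATA element in the form AGATAA only, the CACCC box, the CCAAT box and, for the TATA box, TATAA. Neighbouring or overlapping matches run into each other.
Hbb-bt: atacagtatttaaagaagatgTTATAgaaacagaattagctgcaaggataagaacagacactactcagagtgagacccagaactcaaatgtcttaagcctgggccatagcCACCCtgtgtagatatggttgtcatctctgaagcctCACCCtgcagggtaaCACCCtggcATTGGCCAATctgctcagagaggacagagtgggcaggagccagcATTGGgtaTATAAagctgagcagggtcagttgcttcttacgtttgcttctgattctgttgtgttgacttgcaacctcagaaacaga
Hbb-bs: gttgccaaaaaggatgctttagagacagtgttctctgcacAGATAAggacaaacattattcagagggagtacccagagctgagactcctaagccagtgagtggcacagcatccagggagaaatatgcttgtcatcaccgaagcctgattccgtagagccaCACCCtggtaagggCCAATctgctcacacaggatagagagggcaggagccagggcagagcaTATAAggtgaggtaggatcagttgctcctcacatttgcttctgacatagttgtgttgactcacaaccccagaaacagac
Hba-a1: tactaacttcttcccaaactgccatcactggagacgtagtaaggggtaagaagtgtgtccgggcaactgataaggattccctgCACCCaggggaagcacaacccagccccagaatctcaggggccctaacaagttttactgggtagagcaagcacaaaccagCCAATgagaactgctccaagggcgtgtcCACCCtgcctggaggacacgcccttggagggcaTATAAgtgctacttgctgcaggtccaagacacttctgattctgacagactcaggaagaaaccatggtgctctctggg
Alas2: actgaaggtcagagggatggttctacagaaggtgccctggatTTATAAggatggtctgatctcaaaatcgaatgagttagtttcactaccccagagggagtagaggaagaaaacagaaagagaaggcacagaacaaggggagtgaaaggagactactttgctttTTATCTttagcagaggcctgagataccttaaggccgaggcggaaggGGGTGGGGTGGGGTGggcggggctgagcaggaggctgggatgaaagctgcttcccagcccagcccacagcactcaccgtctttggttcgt

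CACCC was present in all 4 windows and in 57.5% of 32851 RefSeq windows of this length. CCAAT was present in the 3 globin windows, absent from that of Alas2, and present in 37.4% of all windows. TATAA (24.9% of all windows) had its match nearest the start 28 bases before it in Hbb-bt, 29 in Hbb-bs and 27 in Hba-a1, while in Alas2 the matches lay 208 and 207 bases upstream. AGATAA (11.2% of all windows) was found in Hbb-bs and Alas2. Other spellings of the GATA element were not searched, such as the TGATAA that stands unmarked in the Hba-a1 window. A match is a description of these letters and was not tested for function.

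Hbb-bt had 39.8, 21.2 and 29.5 FPKM after 1/5 LD50, against 162, 114 and 140.5 FPKM in saline. Its highest soman library was under the lowest saline library by more than a factor of 2, with a log2 change of -2.19 ± 0.40 (SE, adjusted p = 0.0108). Hbb-bs had 81.7, 47.4 and 64.8 FPKM after 1/5 LD50, against 301, 257 and 283 FPKM in saline. The order of the soman libraries was that seen for Hbb-bt, and the log2 change was -2.13 ± 0.39 (adjusted p = 0.0108). The beta genes are near-identical, so reads may be split between them. Hba-a1 had 111, 60.4 and 78.9 FPKM after 1/5 LD50, against 300.1, 267 and 279 FPKM in saline, a log2 change of -1.79 ± 0.32 (adjusted p = 0.0108). Hba-a2 codes for the same alpha chain and averaged 34.0 ± 1.97 FPKM after 1/5 LD50 and 150.2 ± 8.90 FPKM in saline (SD, n = 3 each), without overlap, but missed the threshold in the model of all 13 groups (log2 change -2.11 ± 0.56, adjusted p = 0.104). Alas2 had 1.18, 0.489 and 1.03 FPKM after 1/5 LD50, against 4.85, 4.14 and 4.31 FPKM in saline, a log2 change of -1.53 ± 0.30 (adjusted p = 0.0294). In replicate 2 of the soman group Alas2, Hbb-bt, Hbb-bs and Hba-a1 were each at their lowest.

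Of 9 tested genes of the erythroid list, 4 fell (0.102% of all genes) and none rose, with a median log2 change of -1.53. At an unadjusted p below 0.05, 5 were lower (4.24% of all genes) and 1 was higher (6.11% of all genes). Of the other members, Fech (ferrochelatase, the last enzyme of haem synthesis), Bpgm (which makes the red cell's 2,3-bisphosphoglycerate) and Car2 (carbonic anhydrase) are also expressed by brain cells and had log2 changes between -0.09 and 0.38. The summed FPKM of the list was 475 to 526 in the soman libraries and 1058 to 1162 in saline. Fewer red cells in the tissue and less RNA per red cell cannot be told apart in bulk RNA. The neutrophil gene S100a9, a marker of other blood cells, was below 1 FPKM in every library of both groups. The 4 erythroid genes lost their call, like all 24, without replicate 3 of both groups (adjusted p = 0.273 each), where Hbb-bt had a log2 change of -2.18 and Hba-a1 of -1.77. The count of 4 was also 0 by limma without 1/5 LD50 replicate 2 or 3 or saline replicate 1 or 3, with 5 lower at an unadjusted p below 0.05 in each case, and 3 without replicate 1 of 1/5 LD50 or replicate 2 of saline. The median log2 change of the list stayed between -1.64 and -1.37 with a library left out.

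**Figure D2:**
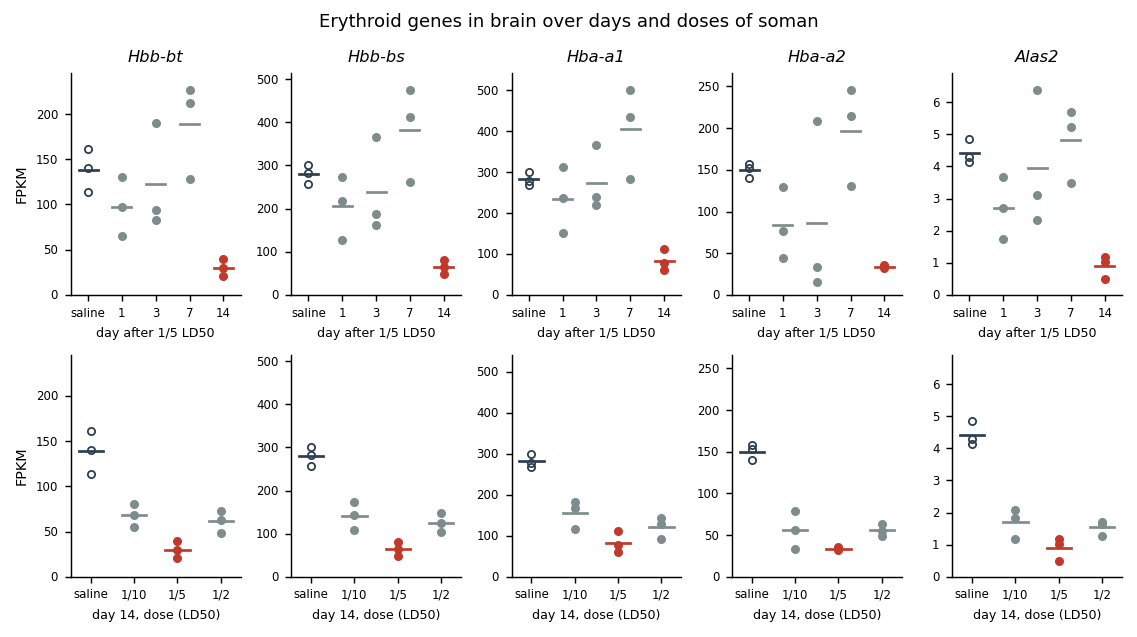
FPKM of 5 erythroid genes in each library (points) with the group mean (line), over days after 1/5 LD50 (top) and over doses at day 14 (bottom), with saline at the left of each panel. The libraries of 1/5 LD50 at day 14 (red) were the lowest of the time course for Hbb-bt, Hbb-bs, Hba-a1 and Alas2.

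Among the days at this dose, Hbb-bs was lowest at day 14. Over the time course Hbb-bs averaged 280.3 ± 22.4 FPKM in saline, 206 ± 74.5 at day 1, 238 ± 111 at day 3, 383 ± 109.9 at day 7 and 64.6 ± 17.1 at day 14 (SD, n = 3 each). Day 14 was below day 7 by 2.54 ± 0.39 on the log2 scale (adjusted p = 7.02e-05), a comparison that does not use saline. Hbb-bt (log2 change -2.61 ± 0.40, adjusted p = 6.91e-05), Hba-a1 (-2.27 ± 0.32, adjusted p = 3.44e-05), Hba-a2 (-2.45 ± 0.56, adjusted p = 0.00349) and Alas2 (-1.61 ± 0.30, adjusted p = 0.000628) also fell between day 7 and day 14. Across doses at day 14, Hbb-bs averaged 280.3 ± 22.4 FPKM in saline, 141 ± 33.0 at 1/10, 64.6 ± 17.1 at 1/5 and 125 ± 22.3 at 1/2 LD50. The middle dose was the lowest, below 1/10 LD50 by 1.13 ± 0.39 (adjusted p = 0.213) and below 1/2 LD50 by 0.96 ± 0.39 (adjusted p = 0.632) on the log2 scale, neither of which passed the test.

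Gadd45b encodes a stress and activity sensor that takes part in DNA demethylation in neurons. It had 9.16, 9.67 and 9.28 FPKM after 1/5 LD50, against 5.12, 5.84 and 5.06 FPKM in saline. The libraries of a group lay close together, and the log2 change was 0.71 ± 0.11 (adjusted p = 0.0045). Fosb, a partner of Jun proteins in the transcription factor AP-1, had 2.07, 2.06 and 2.65 FPKM after 1/5 LD50, against 1.3, 1.18 and 1.02 FPKM in saline, a log2 change of 0.59 ± 0.12 (adjusted p = 0.0386). Sertad1, a regulator of cyclin-dependent kinase 4, had 4.84, 5.52 and 4.63 FPKM after 1/5 LD50, against 3.21, 2.94 and 3.05 FPKM in saline (log2 change 0.56 ± 0.10, adjusted p = 0.0108). Gadd45b passed the threshold under every alternative other than those leaving out 1/5 LD50 replicate 2, saline replicate 3 or replicate 3 of both groups. Its log2 change lay between 0.66 and 0.80 across the 13 alternatives.

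Of 37 tested immediate early genes, 2 rose (0.0612% of all genes) and none fell, and the median log2 change was 0.26. At an unadjusted p below 0.05, 19 of the 37 were higher and none lower, beside 6.11% of all genes higher and 4.24% lower. The 2 calls were 0 without 1/5 LD50 replicate 2, without saline replicate 3 or without replicate 3 of both groups, and 1 without any other single library. Without replicate 3 of both groups 13 were higher at the unadjusted level. Their summed FPKM was 475 to 495 in the soman libraries and 352 to 369 in saline. Junb, another AP-1 subunit, had 22.7, 20.1 and 20.7 FPKM after 1/5 LD50, against 11.5, 12.8 and 11.5 FPKM in saline, but its log2 change of 0.78 ± 0.18 missed the threshold (adjusted p = 0.0653). Sik1, a kinase that restrains CREB signalling, averaged 4.07 ± 0.376 FPKM after 1/5 LD50 and 2.79 ± 0.153 FPKM in saline (SD, n = 3 each, adjusted p = 0.0775). The next genes were named after their values had been seen. The orphan nuclear receptor Nr4a1 averaged 38.2 ± 1.90 FPKM after 1/5 LD50 and 21.5 ± 0.770 FPKM in saline (adjusted p = 0.149), and Arc, which drives the removal of AMPA receptors from synapses, 65.4 ± 4.65 FPKM after 1/5 LD50 and 39.9 ± 2.85 FPKM in saline (adjusted p = 0.209). Fos averaged 14.1 ± 1.44 FPKM after 1/5 LD50 and 11.4 ± 1.14 FPKM in saline (adjusted p = 0.746) and Npas4, a factor specific to neuronal depolarization, 3.79 ± 0.186 FPKM after 1/5 LD50 and 3.95 ± 0.342 FPKM in saline (adjusted p = 0.97).

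**Figure D3:**
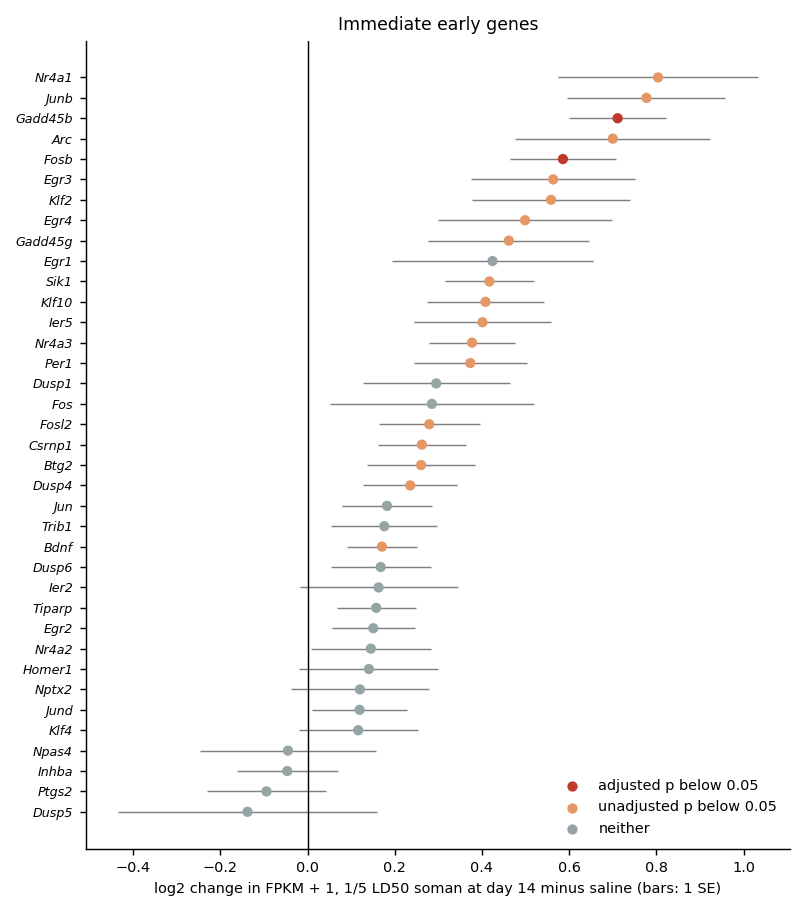
Log2 change in FPKM + 1 (bars, 1 SE) of the 37 tested immediate early genes, 1/5 LD50 soman at day 14 minus saline. Of these, 33 lie above 0, and Gadd45b and Fosb pass the adjusted threshold.

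Sertad1, Gadd45b and Fosb were also above saline at day 7 of this dose, with log2 changes of 0.47, 0.49 and 0.58 (adjusted p = 0.00177, 0.00281 and 0.00175). Fosb was below saline at day 3 (-0.49, adjusted p = 0.0111) and Gadd45b was not called there (0.06, adjusted p = 0.789). Between day 14 and day 7 the log2 change was 0.22 for Gadd45b (adjusted p = 0.208) and 0.01 for Fosb (adjusted p = 0.972). At day 14 the doses lay close together: Gadd45b averaged 8.03 ± 0.862 FPKM at 1/10, 9.37 ± 0.269 at 1/5 and 8.45 ± 0.244 at 1/2 LD50, while Fosb averaged 2.52 ± 0.285 FPKM at 1/10, 2.26 ± 0.335 at 1/5 and 2.61 ± 0.308 at 1/2 LD50 (SD, n = 3 each). No difference between 1/5 LD50 and the other doses passed the test for either gene.

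The other rises were in genes of varied roles. Dtd1, which removes D-amino acids from transfer RNA, had 30.8, 32.5 and 31.0 FPKM after 1/5 LD50, against 22.1, 23.1 and 22.4 FPKM in saline (log2 change 0.46 ± 0.07, adjusted p = 0.0045). Kat14, a scaffold of the ATAC histone acetyltransferase complex, had 11.9, 11.4 and 11.5 FPKM after 1/5 LD50, against 7.06, 9.23 and 9.18 FPKM in saline (0.42 ± 0.09, adjusted p = 0.0478). Saline replicate 1 was the lowest of the 6. Tomm34, a cytosolic chaperone partner in mitochondrial protein import, averaged 26.5 ± 0.693 FPKM after 1/5 LD50 and 21.3 ± 0.391 FPKM in saline (0.30 ± 0.06, adjusted p = 0.0327). Mxi1, a repressor that competes with Myc for Max, averaged 27.7 ± 1.56 FPKM after 1/5 LD50 and 22.9 ± 0.494 FPKM in saline (0.26 ± 0.06, adjusted p = 0.0478), and Fam220a 11.3 ± 0.401 FPKM after 1/5 LD50 and 8.43 ± 0.401 FPKM in saline (0.39 ± 0.08, adjusted p = 0.0327). Mad2l1bp, which silences the spindle checkpoint, was next by p and missed the threshold (4.94 ± 0.357 FPKM after 1/5 LD50 and 3.36 ± 0.194 FPKM in saline, adjusted p = 0.0523).

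Cwc22, a spliceosome protein that recruits the exon junction complex, had 5.61, 74.5 and 41.6 FPKM after 1/5 LD50, against 5.28, 5.88 and 6.09 FPKM in saline. Replicate 1 sat within the saline range, replicate 2 was far above it, and replicate 3 lay between them. The log2 change of 2.04 ± 0.41 (adjusted p = 0.0294) rests on replicates 2 and 3, and became 1.32 (adjusted p = 0.186) without replicate 2 and 1.73 (adjusted p = 0.219) without replicate 3. In the other 12 groups no library exceeded 7.29 FPKM. The gene's copy number differs between mice and was not measured here, so its value is uncertain. The cause of the spread between replicates was not tested.

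Several genes of connective tissue and of the meninges fell. Col3a1, the fibrillar collagen of soft connective tissue, had 3.33, 3.17 and 3.31 FPKM after 1/5 LD50, against 6.52, 5.44 and 5.75 FPKM in saline. The soman libraries were nearly alike and the log2 change was -0.69 ± 0.13 (adjusted p = 0.0204). Slc47a1, a cation exporter of meningeal fibroblasts in brain, had 1.18, 0.879 and 1.18 FPKM after 1/5 LD50, against 2.79, 2.18 and 2.72 FPKM in saline (-0.78 ± 0.17, adjusted p = 0.0478). Gjb2, the gap junction protein connexin 26 of the leptomeninges, had 2.10, 2.03 and 2.04 FPKM after 1/5 LD50, against 3.37, 3.16 and 3.76 FPKM in saline (-0.54 ± 0.10, adjusted p = 0.0108). Htra3, a secreted serine protease, averaged 1.40 ± 0.285 FPKM after 1/5 LD50 and 2.30 ± 0.213 FPKM in saline (-0.47 ± 0.10, adjusted p = 0.0434). Loxl1, which crosslinks elastin, averaged 0.753 ± 0.0875 FPKM after 1/5 LD50 and 1.39 ± 0.161 FPKM in saline (-0.45 ± 0.09, adjusted p = 0.0415). Mrc1, a mannose receptor of border macrophages, had 1.00, 1.07 and 0.778 FPKM after 1/5 LD50, against 1.73, 1.73 and 1.58 FPKM in saline (-0.46 ± 0.10, adjusted p = 0.0386). Loxl1 and Mrc1 were below the level set for named genes, as was the predicted locus Gm3257 by its symbol (-0.53 ± 0.11, adjusted p = 0.0314), and these 3 were named after their values had been seen.

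Of 33 tested meningeal fibroblast markers 2 fell (0.102% of all genes) and none rose, with 17 lower (4.24% of all genes) and none higher at an unadjusted p below 0.05 and a median log2 change of -0.26. The 2 calls were 1 without saline replicate 2 and 0 without any other single library or without replicate 3 of both groups, where 14 to 18 were lower at the unadjusted level. Their summed FPKM was 892 to 924 in the soman libraries and 977 to 1139 in saline. Col6a2 (3.90 ± 0.513 FPKM after 1/5 LD50 and 6.03 ± 0.551 FPKM in saline, adjusted p = 0.0556) and the growth factor Igf2 (15 ± 0.542 FPKM after 1/5 LD50 and 22 ± 1.81 FPKM in saline, adjusted p = 0.0798) missed the threshold. The markers were not equally low. The proteoglycan Dcn, named after its values were seen, averaged 12.0 FPKM after 1/5 LD50 and 11.5 FPKM in saline, and its relative Lum 0.992 FPKM after 1/5 LD50 and 1.11 FPKM in saline. Among 29 collagen and basement membrane genes none passed, 14 were lower and none higher at an unadjusted p below 0.05, and the median log2 change was -0.26. Col4a1, a chain of the vessel basement membrane, averaged 10.5 ± 0.699 FPKM after 1/5 LD50 and 13.7 ± 0.448 FPKM in saline (adjusted p = 0.0653). How much meninges each sample held was not measured other than by these genes.

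Kdr, the main receptor of vascular endothelial growth factor, had 4.0, 3.96 and 3.69 FPKM after 1/5 LD50, against 6.32, 6.11 and 6.88 FPKM in saline. Its log2 change of -0.61 ± 0.10 (adjusted p = 0.00654) was the only call among 25 endothelial genes, whose median log2 change was -0.06. The call was lost without 1/5 LD50 replicate 2 or 3, saline replicate 3 or replicate 3 of both groups. Tek, the angiopoietin receptor, averaged 3.16 ± 0.103 FPKM after 1/5 LD50 and 4.17 ± 0.39 FPKM in saline and missed the threshold (-0.31 ± 0.08, adjusted p = 0.0869). The next genes, Cldn5, Pecam1 and Flt1, were chosen after their values were seen. The tight junction gene Cldn5 averaged 14.3 FPKM after 1/5 LD50 and 15.4 FPKM in saline (adjusted p = 0.925). The adhesion gene Pecam1 averaged 5.53 FPKM after 1/5 LD50 and 6.01 FPKM in saline (adjusted p = 0.773), and the related receptor Flt1 11.0 FPKM after 1/5 LD50 and 11.5 FPKM in saline (adjusted p = 0.923). The glucose transporter of the blood-brain barrier, Slc2a1, averaged 41.8 ± 1.89 FPKM after 1/5 LD50 and 31.3 ± 1.36 FPKM in saline (adjusted p = 0.193). The summed FPKM of the endothelial list was 517 to 534 in the soman libraries and 506 to 518 in saline.

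**Figure D4:**
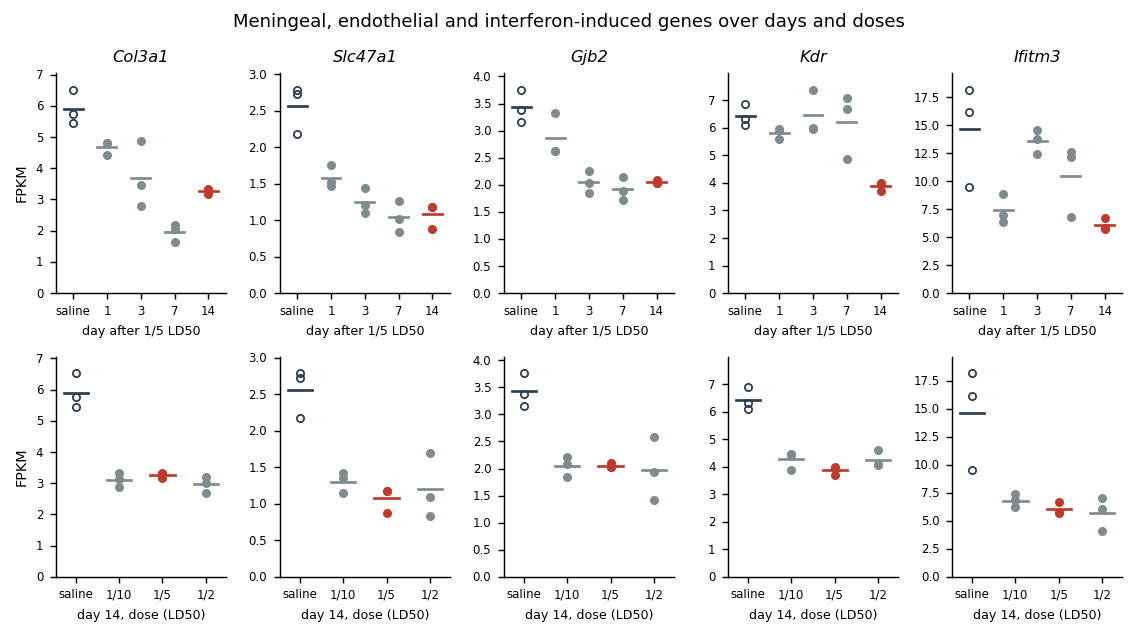
FPKM of Col3a1, Slc47a1, Gjb2, Kdr and Ifitm3 in each library (points) with the group mean (line), over days after 1/5 LD50 (top) and doses at day 14 (bottom), with saline at the left. Kdr was low at day 14 in the 3 doses, Col3a1 was lowest at day 7, and Ifitm3 varied widely within saline, between 9.5 and 18.2 FPKM.

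Over the days at this dose, Kdr averaged 6.44 ± 0.397 FPKM in saline, 5.81 ± 0.198 at day 1, 6.45 ± 0.813 at day 3, 6.21 ± 1.18 at day 7 and 3.89 ± 0.168 at day 14 (SD, n = 3 each). Day 14 was below day 7 by 0.55 ± 0.10 on the log2 scale (adjusted p = 0.000475). Col3a1 was higher at day 14 than at day 7, with a log2 change of 0.53 ± 0.13 (adjusted p = 0.00725), and Mrc1 likewise (0.47 ± 0.10, adjusted p = 0.00162). Gjb2 and Slc47a1 stayed within 0.07 of their day 7 values on the log2 scale and did not pass. At day 14 Kdr averaged 4.26 ± 0.324 FPKM at 1/10, 3.89 ± 0.168 at 1/5 and 4.25 ± 0.303 at 1/2 LD50, and neither difference of 1/5 LD50 from another dose passed (adjusted p = 0.672 and 0.896).

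Ifitm3, Lgals3bp and Rnf213, which are induced by interferon, fell, with saline replicate 1 nearest to the soman libraries. Ifitm3, a membrane protein that blocks virus entry, had 5.70, 6.71 and 5.77 FPKM after 1/5 LD50, against 9.5, 18.2 and 16.2 FPKM in saline (-1.10 ± 0.24, adjusted p = 0.0478). Lgals3bp, a secreted galectin-binding protein, had 3.13, 3.99 and 3.64 FPKM after 1/5 LD50, against 5.19, 8.62 and 7.28 FPKM in saline (-0.79 ± 0.17, adjusted p = 0.0426). Rnf213, a large ubiquitin ligase induced by interferon, had 0.947, 0.915 and 0.869 FPKM after 1/5 LD50, against 1.29, 2.74 and 2.19 FPKM in saline (-0.66 ± 0.13, adjusted p = 0.0294). In each of these genes saline replicate 2 was the highest library and saline replicate 1 was below the other saline libraries. Of 24 tested members of the interferon list 2 fell (0.102% of all genes) and none rose, with a median log2 change of -0.40. At an unadjusted p below 0.05, 15 were lower (4.24% of all genes) and none higher. Bst2, which tethers budding virus, averaged 2.38 ± 0.215 FPKM after 1/5 LD50 and 6.19 ± 2.41 FPKM in saline (adjusted p = 0.0653). Isg15, a ubiquitin-like modifier named after its values were seen, averaged 1.27 ± 0.124 FPKM after 1/5 LD50 and 3.51 ± 1.68 FPKM in saline (adjusted p = 0.104). Without saline replicate 1 the list had 6 falls, and without any other single library of either group no member passed by limma, while 11 to 15 were lower at an unadjusted p below 0.05. The summed FPKM was 65.5 to 71.4 in the soman libraries and 84.9 to 128 in saline.

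The RNA of the direct target of soman did not differ beyond the error. Ache (acetylcholinesterase) averaged 30.9 ± 1.62 FPKM after 1/5 LD50 and 32.2 ± 2.41 FPKM in saline, a log2 change of -0.06 ± 0.13 (adjusted p = 0.928). Bche (butyrylcholinesterase) averaged 1.01 ± 0.237 FPKM after 1/5 LD50 and 0.925 ± 0.118 FPKM in saline (adjusted p = 0.923) and Chat, which makes acetylcholine, 2.18 ± 0.204 FPKM after 1/5 LD50 and 1.86 ± 0.303 FPKM in saline (adjusted p = 0.834). None of 15 tested cholinergic genes passed. The muscarinic receptor Chrm4, of smallest p, averaged 6.81 ± 0.436 FPKM after 1/5 LD50 and 5.13 ± 0.589 FPKM in saline (0.35 ± 0.14, adjusted p = 0.352).

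Other lists held no gene that passed, and several leaned in a direction at an unadjusted p below 0.05, beside 6.11% of all genes higher and 4.24% lower. Of 79 genes of cytosolic ribosomal proteins 19 were higher and none lower, with a median of 0.18, but 12 were higher without saline replicate 3 and 7 without replicate 3 of both groups. Of 23 cytosolic heat shock genes 8 were higher and none lower (median 0.14), led by Hspa1a with 7.93 ± 1.64 FPKM after 1/5 LD50 and 3.69 ± 0.162 FPKM in saline (adjusted p = 0.144), whose copy Hspa1b is near-identical. The 8 heat shock genes became 5 without 1/5 LD50 replicate 3 and 3 without replicate 3 of both groups. Of 22 clock genes 7 were higher and none lower (median 0.16), and of 20 glucocorticoid-responsive genes 7 were higher and none lower (median 0.04). Zbtb16, a zinc finger repressor induced by glucocorticoids, averaged 4.30 ± 0.225 FPKM after 1/5 LD50 and 2.95 ± 0.176 FPKM in saline (adjusted p = 0.0869). The cold-inducible RNA-binding genes Rbm3 (30.8 ± 2.92 FPKM after 1/5 LD50 and 21.3 ± 3.13 FPKM in saline, adjusted p = 0.128) and Cirbp (38.5 ± 3.25 FPKM after 1/5 LD50 and 27.9 ± 2.37 FPKM in saline, adjusted p = 0.174) were both higher at the unadjusted level. Of 18 genes of oligodendrocyte progenitors 8 were lower and none higher (median -0.18), led by Enpp6, a marker of newly forming oligodendrocytes, with 3.36 ± 0.166 FPKM after 1/5 LD50 and 5.80 ± 0.532 FPKM in saline (adjusted p = 0.058). Of 26 microglial genes 3 were lower and none higher (median -0.22). Without saline replicate 1 the count was 1 and the median -0.13, without saline replicate 2 they were 10 and -0.29, without saline replicate 3 the count was 5, and without 1/5 LD50 replicate 1 or 2 it was 2. The summed FPKM of the microglial list was 195 to 199 in the soman libraries and 210 to 278 in saline. Of 5 lists of voltage-gated sodium and calcium channels, potassium channels, glutamate receptors, GABA receptors and release machinery, none held more than 2 genes in a direction, and their medians lay between -0.02 and 0.04.

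The 3 doses at day 14 and the 4 days of this dose were each compared with the same saline libraries, so the counts that follow share them. At day 14, 64 genes passed at 1/10 LD50 (0.435%), 24 at 1/5 LD50 and 61 at 1/2 LD50 (0.415%). Immediate early genes were called higher in 4 cases at 1/10 LD50 (0.0476% of all genes), 2 at 1/5 and 3 at 1/2 LD50 (0.0816%). Meningeal fibroblast markers were called lower in 10 cases at 1/10 LD50 (0.388%), 2 at 1/5 and 10 at 1/2 LD50 (0.333%). Of 9 erythroid genes, 0 were called lower at 1/10 LD50 (5 at an unadjusted p below 0.05, 8.38% of all genes, median -0.87), 4 at 1/5 LD50 (median -1.53) and 0 at 1/2 LD50 (5 at an unadjusted p below 0.05, 6.01% of all genes, median -1.10), all by limma. At 1/5 LD50 the number of genes that passed was 2 at day 1 (0.0136%), 1265 at day 3 (8.6%), 2258 at day 7 (15.4%) and 24 at day 14. Immediate early genes were called lower in 17 cases at day 3 (6.12% of all genes were lower) and higher in 7 cases at day 7 (6.49% were higher). Meningeal fibroblast markers were called lower in 0 cases at day 1 (13 at an unadjusted p below 0.05, 3.98% of all genes), 18 at day 3, 23 at day 7 (8.87% of all genes were lower) and 2 at day 14.

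Direct tests between doses at day 14 called few genes. Between 1/5 and 1/10 LD50, 6 genes passed (0.0408%), 5 higher (0.034%) and 1 lower (0.0068%) at the middle dose, while 1931 genes (13.1%) had an unadjusted p below 0.05. Without replicate 2 of 1/10 LD50, in which mitochondrial genes took 14.3% of the FPKM, no gene passed by limma and 706 were below 0.05 unadjusted. The part of that library's mitochondrial share in the difference was not tested. Beside Cwc22, the rises were Mcm5, Itih2, Tamm41 and Eif3c. Mcm5, a subunit of the replicative helicase, had 3.08, 4.07 and 3.32 FPKM at 1/5 LD50, against 1.73, 1.28 and 1.3 FPKM at 1/10 LD50 (log2 change 0.88 ± 0.17, adjusted p = 0.0496). Itih2, which binds hyaluronan in the extracellular matrix, averaged 2.73 ± 0.679 FPKM at 1/5 and 1.13 ± 0.373 FPKM at 1/10 LD50 (0.81 ± 0.16, adjusted p = 0.0496). Tamm41, a mitochondrial enzyme of cardiolipin synthesis, averaged 6.38 ± 1.01 FPKM at 1/5 and 4.05 ± 0.0881 FPKM at 1/10 LD50 (0.54 ± 0.10, adjusted p = 0.0482), and Eif3c, a subunit of translation initiation factor 3, 76.4 ± 2.92 FPKM at 1/5 and 64.4 ± 2.93 FPKM at 1/10 LD50 (0.24 ± 0.05, adjusted p = 0.0496). Ttpa, the alpha-tocopherol transfer protein, was lower, with 1.31, 0.885 and 1.36 FPKM at 1/5 LD50, against 2.28, 2.82 and 2.62 FPKM at 1/10 LD50 (-0.71 ± 0.12, adjusted p = 0.0183). Saline stood at 2.14 FPKM or less for Ttpa. With median-ratio scaling the split of 5 higher and 1 lower became 0 higher and 1 lower. The count was 3, 1 and 1 without 1/5 LD50 replicates 1, 2 and 3, and 2, 0 and 8 without 1/10 LD50 replicates 1, 2 and 3. Of those 8, 1 was among the 6 genes. In a model of only these 2 groups 8 genes passed and none of the 6 was among them.

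Between 1/5 and 1/2 LD50, 6 genes passed (0.0408%), all higher at 1/5 LD50, and 1015 (6.9%) had an unadjusted p below 0.05. Dbp, a transcription factor driven by the circadian clock, had 42.3, 37.6 and 38.6 FPKM at 1/5 LD50, against 24.0, 21.2 and 17.3 FPKM at 1/2 LD50. Its log2 change was 0.90 ± 0.13 (adjusted p = 0.00169), and it averaged 28.2 ± 2.14 FPKM in saline. Ino80, the ATPase of a nucleosome remodeller, had 5.70, 5.70 and 5.35 FPKM at 1/5 LD50, against 2.48, 2.06 and 2.83 FPKM at 1/2 LD50 (0.94 ± 0.16, adjusted p = 0.0159). Saline, at 5.55, 5.58 and 5.73 FPKM, lay close to the middle dose for Ino80. Zfp579 averaged 5.40 ± 0.541 FPKM at 1/5 and 3.67 ± 0.0882 FPKM at 1/2 LD50 (adjusted p = 0.0399), and Kxd1, a part of the complex that positions lysosomes, 13 ± 0.338 FPKM at 1/5 and 9.56 ± 0.842 FPKM at 1/2 LD50 (adjusted p = 0.0419). Cwc22 also passed, and the remaining gene has a clone name. Leaving out any library of either group left 1 or 2 genes: 2, 2 and 1 without 1/5 LD50 replicates 1, 2 and 3, and 1, 2 and 2 without 1/2 LD50 replicates 1, 2 and 3.

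Clock genes were often higher at 1/5 LD50 than at the other doses of that day at the unadjusted level. Of its 22 genes 10 were higher and none lower against 1/10 LD50 (10.5% of all genes were higher, 2.67% lower), and 9 were higher and 2 lower against 1/2 LD50 (5.06% of all genes were higher, 1.84% lower). The median was 0.19 against 1/10 LD50 and 0.15 against 1/2 LD50, beside 0.05 and 0.03 for all genes. Against 1/10 LD50, the 10 higher genes became 4, with 2 lower, under median-ratio scaling or without 1/5 LD50 replicate 1, and 3 without 1/10 LD50 replicate 2, where the median was 0.12. With the trend on transcript length removed they became 5, with 2 lower. The summed FPKM of the list was 332 to 383 at 1/10, 402 to 434 at 1/5 and 341 to 370 at 1/2 LD50, and 350 to 368 in saline. Dbp was the single member that passed.

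Of the 4 comparisons of this group, that with day 7 of the same dose called the most genes. Between day 14 and day 7, 1840 genes passed (12.5%), 1188 higher (8.08%) and 652 lower (4.44%) at day 14, and the median log2 change of all genes was -0.02. The rises named here are Cwc22, Glra1, Lnpep and Atp8a2. Lnpep, an insulin-regulated aminopeptidase, had 13.5, 12.3 and 13.3 FPKM at day 14, against 5.06, 5.70 and 4.38 FPKM at day 7 (1.22 ± 0.14, adjusted p = 4.1e-06). Atp8a2, a lipid flippase, averaged 12.4 ± 0.19 FPKM at day 14 and 5.47 ± 0.889 FPKM at day 7 (1.06 ± 0.13, adjusted p = 4.55e-06). Glra1, the glycine receptor alpha subunit of brainstem and spinal cord, averaged 5.47 ± 1.04 FPKM at day 14 and 0.883 ± 0.323 FPKM at day 7 (1.78 ± 0.49, adjusted p = 0.0139). In saline, Lnpep averaged 14.5 FPKM, Atp8a2 12.5 FPKM and Glra1 7.04 FPKM. Beside the haemoglobin genes, Lsm5, a ring protein of messenger RNA decay and splicing, was among the named falls (1.04 ± 0.614 FPKM at day 14 and 5.39 ± 1.66 FPKM at day 7, adjusted p = 0.0392).

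By list, part of the channel and receptor genes of neurons was higher at day 14 than at day 7. The counts that follow stand beside 8.08% of all genes higher and 4.44% lower. Of 26 voltage-gated sodium and calcium channel genes 9 rose and none fell (median 0.25), of 43 potassium channel genes 11 rose and none fell (median 0.18), of 24 glutamate receptor genes 6 rose (median 0.19), of 21 GABA genes 5 rose (median 0.16) and of 27 release genes 6 rose (median 0.17), with no fall in these lists. Of 33 meningeal markers 13 rose and 2 fell (median 0.25). Lower at day 14 were ribosomal protein genes (19 of 79, none higher, median -0.33), respiratory chain subunits (12 of 69, none higher, median -0.25), endothelial genes (10 of 25, none higher, median -0.27), microglial genes (8 of 26, none higher, median -0.39) and erythroid genes (5 of 9, none higher, median -1.61). With the trend of each library on transcript length removed, an alternative chosen after seeing the data, the 1188 higher and 652 lower genes became 564 and 503. The medians of the 5 channel, receptor and release lists then lay between 0.07 and 0.13. Rises then numbered 5 for sodium and calcium channels, 4 for potassium channels, 3 for glutamate receptors, 3 for GABA genes and 2 for release genes. In the potassium channel list 1 gene fell. Lower in that setting were 7 ribosomal, 5 respiratory chain and 3 microglial genes, while endothelial falls stayed at 10 and erythroid falls at 5. Leaving out replicate 1 or 3 of day 14 or replicate 3 of day 7 left 1157, 1087 and 1012 genes, and leaving out replicate 3 of both groups left 567. Of the lists, erythroid genes had 5 falls without any single library and 4 without replicate 3 of both groups. The meningeal rises numbered 10 to 13 with 1 library left out and 6 without replicate 3 of both groups. Among the lower lists, with 1 library left out, ribosomal genes had 10 to 15 falls, respiratory chain genes 5 to 12, endothelial genes 5 to 10 and microglial genes 2 to 5. Without replicate 3 of both groups these falls numbered 2 for ribosomal, 1 for respiratory chain, 4 for endothelial and 2 for microglial genes. With 1 library left out, the rises numbered 5 to 9 for sodium and calcium channels, 6 to 9 for potassium channels, 2 to 5 for glutamate receptors, 3 to 6 for GABA genes and 4 to 6 for release genes. Their medians stayed above 0.13 in each of these cases.

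**Figure D5:**
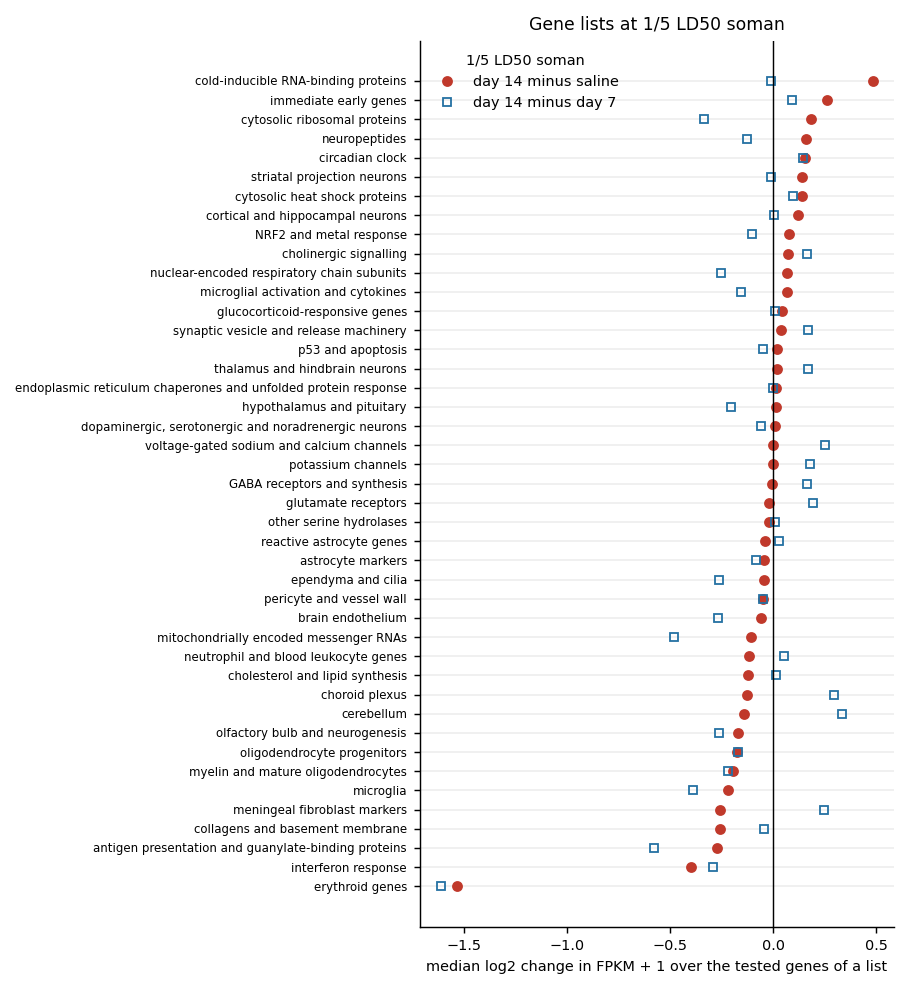
Median log2 change in FPKM + 1 over the tested genes of each of 43 gene lists at 1/5 LD50, day 14 minus saline (red circles) and day 14 minus day 7 (open blue squares). Erythroid genes have the lowest median in both, -1.53 and -1.61, while channel and receptor lists lie near 0 against saline and above 0 against day 7.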

How the data were processed

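The samples were mouse brain RNA; poly(dT) selection and a SmartScribe cDNA kit are named in the labels' protocols. The aligner HISAT2 comes from the submitters' processing notes. Those notes carry no version, and their only build is the human GRCh38, although the animals were mice; coordinates were therefore not taken from the table. The authors deposited FPKM for 47561 genes in 39 libraries; what computed them is not given in the sources used here. Read depth, and so the precision of low values, is unknown.

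Labels set the groups. A gene entered the test at 1 FPKM or above in 3 or more libraries (14701 genes). Log2(FPKM + 1) of all 13 groups was fitted jointly in limma 3.58.1 (R 4.3.3; eBayes, trend = TRUE), with Benjamini-Hochberg adjustment over every tested gene at 0.05. The scale understates changes of genes near 1 FPKM. Day 14 after 1/5 LD50 was set against saline, against 1/10 and 1/2 LD50 at day 14, and against day 7 of its own dose. The code was tested on simulated data. How many mice gave each library is unknown here, and p-values measure the spread between libraries, which may be technical in part.

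Genes were named by size: 15 rises and 15 falls against saline that passed and reached 2 FPKM on average, without predicted loci, filled to 10 by p; 5 each way in other comparisons; at most 4 members by p per described list; and Ache, Bche and Chat throughout. Some genes that this rule or a list holds are not reported here. The 43 lists came from general knowledge. Members, lists and rules were chosen with earlier results of these data known. Python 3.11.15 (pandas 2.3.3, numpy 2.4.6, matplotlib 3.10.9) made summaries, promoter matches and figures. Other settings tried were 0.1 as pseudocount, all genes unfiltered, scaling by median ratios, fits limited to the pair of groups, replicate number as block, and omission of libraries. Removing each library's trend on transcript length was added after seeing the data.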

Additional observations from a re-analysis of the deposited data

Results flagged for a closer look

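Differences between 1/5 LD50 at day 14 and other soman groups were tested directly, without saline. At day 14, 6 genes differed between 1/5 and 1/10 LD50, among them Cwc22 and Ttpa. Between 1/5 and 1/2 LD50, 6 genes differed, among them Dbp and Ino80. At 1/5 LD50, 1840 genes differed between day 14 and day 7.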

How the results depend on the processing

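The count of 24 genes against saline became 15 without the filter, 52 with median-ratio scaling, 71 in a model of only the 2 groups (14 of the 24 among them) and 47 with the length trend removed, an alternative chosen after seeing the data. It ranged from 0 to 13 with 1 library left out and was 0 without replicate 3 of both groups. The 6 genes against 1/10 LD50 became 3 with a pseudocount of 0.1, 3 without the filter, 1 with median-ratio scaling and 1 with the length trend removed, were 8 others in a model of only the 2 groups (0 of the 6 among them), ranged from 0 to 8 with 1 library left out and were 0 without replicate 3 of both groups. The 6 genes against 1/2 LD50 became 15 without the filter, 3 with median-ratio scaling, 0 in a model of only the 2 groups (1672 at an unadjusted p below 0.05) and 3 with the length trend removed, ranged from 1 to 2 with 1 library left out and were 0 without replicate 3 of both groups. The 1840 genes against day 7 became 1067 with the length trend removed, ranged from 1012 to 1364 with 1 library left out and were 567 without replicate 3 of both groups. The cause was not tested. With the replicate number as a block the counts were 17, 9, 4 and 1777. Correlations of same-numbered libraries ranged from -0.01 to 0.14, and those of other-numbered libraries from -0.11 to 0.05. With 3 libraries a group, these values cannot settle whether same-numbered samples share more than a number. Among named genes a single value changed sign: that of Bche ranged from -0.034 (without replicate 1 of 1/5 LD50) to 0.13 (without replicate 2) on the log2 scale. In all, 875 values of named genes kept their direction and side of the threshold, 291 lost and 29 gained a call. The 875 include genes that did not pass in the main setting and so had no call to lose. The 24 genes called against saline passed in 1 to 10 of 13 alternatives each. Gadd45b and Dtd1 passed in 10, Fosb, Mrc1, Loxl1 and Kat14 in 2 and Mxi1 in 1. With 3 libraries a group, one saline group of unknown day and no read counts, the depth behind low values such as Alas2 or Rnf213 is unknown.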

Other observations

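Of the 9 genes that rose against saline, 4 (Cwc22, Kat14, Dtd1 and Tomm34) lie on chromosome 2, as does 1 of the 15 that fell (Mrc1), by RefSeq's annotation of GRCm38.p6. Chromosome 2 holds 8.06% of the tested genes with a known chromosome. Kat14 and Dtd1 are near neighbours with 5 protein-coding genes between them (Dzank1, Polr3f, Rbbp9, Sec23b and Smim26). All 5 were tested, none passed, and their log2 changes lay between 0.00 and 0.27. The pattern was noticed in these data and was not tested.

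The pituitary gene Gh ranged from 0 to 19.8 FPKM in the 1/5 LD50 libraries at day 14 and from 0 to 6.18 FPKM in saline. The olfactory marker Omp ranged from 0.0855 to 0.165 FPKM at 1/5 LD50 and from 0.20 to 1.44 FPKM in saline. Neither gene passed the test.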
